A study of Mus musculus with 48 samples.

Results

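The genes described are 35 DNA replication and S phase genes of the mouse, picked by symbol from a table of 48526 genes measured by bulk RNA sequencing of hippocampal microglia, the resident macrophages of the brain. All 35 were found once in the table. The microglia came from C57BL/6 mice whose whole brain received a single 8 Gy dose from an X-RAD320 machine on postnatal day 21, or from sham controls, and were isolated by flow cytometry on the chemokine receptor Cx3cr1. The 8 groups are sham and irradiated animals killed 2 h, 6 h, 1 day and 1 week later, with 6 animals in each and a separate sham group at every time. Sorting on Cx3cr1 does not by itself separate microglia from other Cx3cr1-positive macrophages, and the labels give neither sex nor any allele. Values are reads per 1000000 (RPM) of the library's own reads on genes, recovered from the deposited RPKM, and changes are log2 differences, irradiated minus sham, with their standard error.

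DNA replication is prepared in G1 phase, when the licensing factors Cdc6 and Cdt1 help load the Mcm2 to Mcm7 helicase onto origins. At the G1/S transition cyclin E and its kinase, together with E2F transcription factors, switch on the genes for polymerases, the sliding clamp, nucleotide synthesis and histone supply, and Cdc45 and the GINS complex activate the loaded helicase. Damage that activates p53 induces Cdkn1a (p21), an inhibitor of the cyclin-dependent kinases that drive this step. Microglia in the healthy brain divide rarely and keep their numbers by self-renewal.

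Promoter windows, 5′ to 3′, are shown for the 5 genes whose irradiated and sham libraries did not overlap 1 week after irradiation, from 250 bases before to 50 bases after the RefSeq transcription start in build GRCm38.p6. Capitals mark every match, on either strand, to the E2F core motif in the spelling TTCCCGC or in the spelling TTGGCGC, and also to the spelling TTCGCGC or the spelling TTGCCGC. The strand named is that of the gene.
Mcm6 (chr1:128359656-128359955, minus strand): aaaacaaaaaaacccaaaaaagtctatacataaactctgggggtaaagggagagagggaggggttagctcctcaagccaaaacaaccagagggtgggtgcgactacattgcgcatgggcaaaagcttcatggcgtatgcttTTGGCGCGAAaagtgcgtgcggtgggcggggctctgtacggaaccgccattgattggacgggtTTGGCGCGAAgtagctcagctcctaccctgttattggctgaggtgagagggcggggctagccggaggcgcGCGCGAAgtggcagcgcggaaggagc
Rpa2 (chr4:132768110-132768409, plus strand): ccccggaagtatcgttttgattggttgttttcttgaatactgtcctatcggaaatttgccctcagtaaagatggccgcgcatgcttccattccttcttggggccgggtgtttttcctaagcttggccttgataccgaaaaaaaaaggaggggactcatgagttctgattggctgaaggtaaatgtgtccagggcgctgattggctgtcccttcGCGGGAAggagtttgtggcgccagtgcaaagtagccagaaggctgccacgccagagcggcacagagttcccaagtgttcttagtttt
Rrm1 (chr7:102441445-102441744, plus strand): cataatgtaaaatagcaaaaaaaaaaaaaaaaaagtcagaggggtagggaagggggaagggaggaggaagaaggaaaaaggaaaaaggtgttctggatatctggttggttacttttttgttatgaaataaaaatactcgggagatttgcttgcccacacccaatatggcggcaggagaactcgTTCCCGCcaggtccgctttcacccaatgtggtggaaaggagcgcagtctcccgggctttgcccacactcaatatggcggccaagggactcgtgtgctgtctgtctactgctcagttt
Rrm2 (chr12:24708004-24708303, plus strand): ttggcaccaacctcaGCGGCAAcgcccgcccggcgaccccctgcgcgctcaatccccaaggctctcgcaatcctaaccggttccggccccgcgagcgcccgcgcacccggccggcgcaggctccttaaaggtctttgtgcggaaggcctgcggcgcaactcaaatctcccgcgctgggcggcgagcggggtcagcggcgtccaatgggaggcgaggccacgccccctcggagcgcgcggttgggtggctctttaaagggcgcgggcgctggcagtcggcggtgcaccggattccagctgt
Ccne1 (chr7:38107441-38107740, minus strand): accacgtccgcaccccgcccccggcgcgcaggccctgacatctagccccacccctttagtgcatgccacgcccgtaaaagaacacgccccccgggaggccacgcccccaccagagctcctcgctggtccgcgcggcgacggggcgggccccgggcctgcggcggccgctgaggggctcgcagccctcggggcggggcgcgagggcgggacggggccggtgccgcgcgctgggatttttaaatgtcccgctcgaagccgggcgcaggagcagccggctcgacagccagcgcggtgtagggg

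In these windows the core was matched 5 times for Mcm6, once each for Rpa2, Rrm1 and Rrm2, and not at all for Ccne1, for which the letters searched are not in this window. In Mcm6, 4 of the 5 matches form pairs that overlap, since TTGGCGCGAA holds TTGGCGC on one strand and TTCGCGC on the other. Of the 35 genes, 29 had a promoter in the RefSeq table (Mcm4, Pole, Ccne2, Gins1, Gins2 and Gmnn did not), and 19 of the 29 held at least 1 match, or 65.5%. The same was true of 10.9% of 27025 genes with a window, and of 19.99% of the 8221 among them that were also tested for expression. Among 47 other replication genes 21 of 38 matched windows held it, and among 30 mitosis genes 4 of 25. A match describes letters only and is not a binding site.

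**Figure D1:**
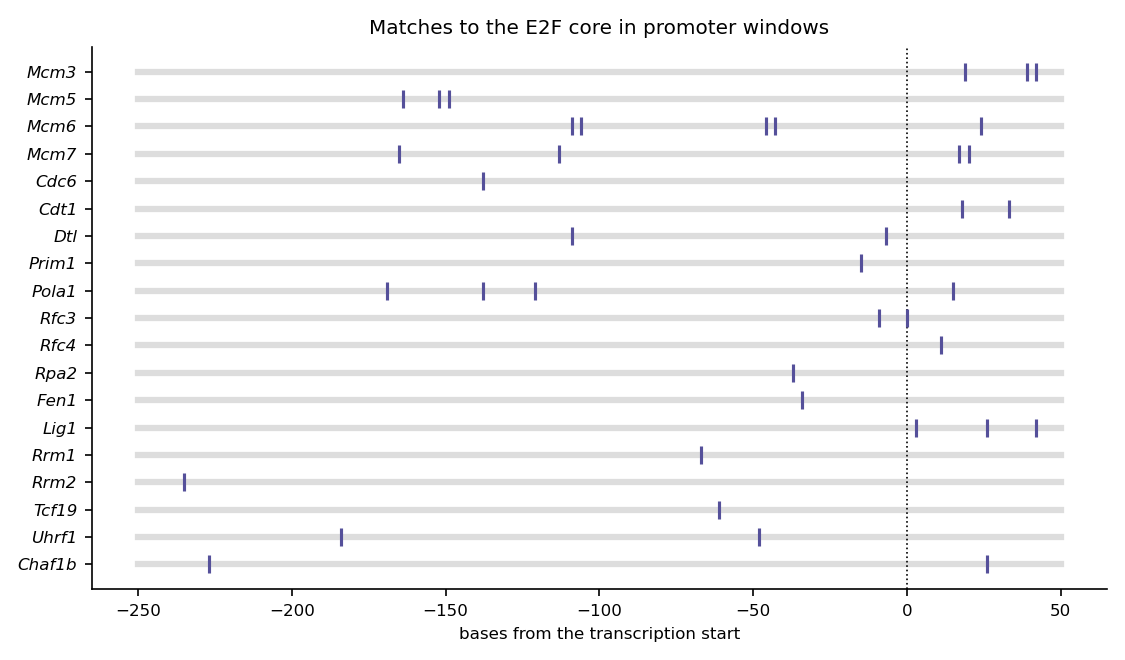
Positions of E2F core matches (purple ticks) in the promoter windows of the 19 genes that hold at least 1, with bases from the transcription start on the horizontal axis and the start as a dotted line. Grey bars span the window from 250 bases before to 50 bases after the start, matches lie from -235 to 42, and Mcm6 has 5.

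The genes were expressed at low levels. Together they had 50821 reads over the 48 libraries, from 30 reads for Fen1 to 7893 for Mcm3, and 14 of the 35 had a read in every library. Libraries held 175382 to 3856777 reads on genes, and 3 had under 1000000 (sham 1 day library 6, irradiated 2 h library 2 and sham 6 h library 4). Per kilobase of exon (GENCODE vM21, while the authors' annotation is not given in the sources used here), the highest mean levels were those of Tcf19 (20.7 RPM per kb), Mcm3 (19.1), Pcna (18.6) and Mcm7 (12.1), and the lowest those of Fen1 (0.0997) and Mcm10 (0.104). Tcf19, a putative transcription factor of late G1, has its reads concentrated in the few libraries described below. Genes with a mean of at least 5 reads a library were tested, which 25 of the 35 passed. Cdc45, Uhrf1, Pole, Cdc6, Rrm2, Chaf1b, Fen1, Mcm10, Gins2 and Dtl did not. Ccne1, E2f1 and Ccne2 would not have passed without the group in which they were most abundant, so the counts below describe the tested genes and do not stand for all 35.

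Irradiation itself was visible in every library through Cdkn1a. Sham libraries had 4.83 to 68.1 RPM over the 4 times and irradiated libraries 731 to 1937, with no overlap at any time. Its log2 change was 6.41 ± 0.37 at 2 h, 6.12 ± 0.30 at 6 h, 5.65 ± 0.32 at 1 day and 4.98 ± 0.26 at 1 week (adjusted p = 1.53e-20 at 1 week).

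The sum of the 35 genes differed most clearly at 1 week. Sham libraries then had 330 to 411 RPM (median 382) and irradiated libraries 498 to 1486 RPM (median 612), so every irradiated library lay above every sham library. At 2 h the range was 264 to 640 RPM in sham and 344 to 1018 in irradiated libraries, at 6 h 366 to 440 and 342 to 419, and at 1 day 335 to 746 and 310 to 563. The groups overlapped at these 3 times. The highest sham library of 2 h holds 294 RPM of Rrm1. Single high libraries were also seen for Tcf19, Tyms, Pola1, Prim1 and Mcm5, a set picked after their values were seen. Without these 5 genes the sums were 303 to 383 RPM in sham and 424 to 592 in irradiated libraries at 1 week, still without overlap, and at 2 h 235 to 620 and 266 to 435. The 10 genes under the filter, summed, gave 8.34 to 19.4 RPM in sham and 23.4 to 47.7 in irradiated libraries at 1 week, against 2.91 to 26.7 and 2.09 to 11.5 at 1 day.

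**Figure D2:**
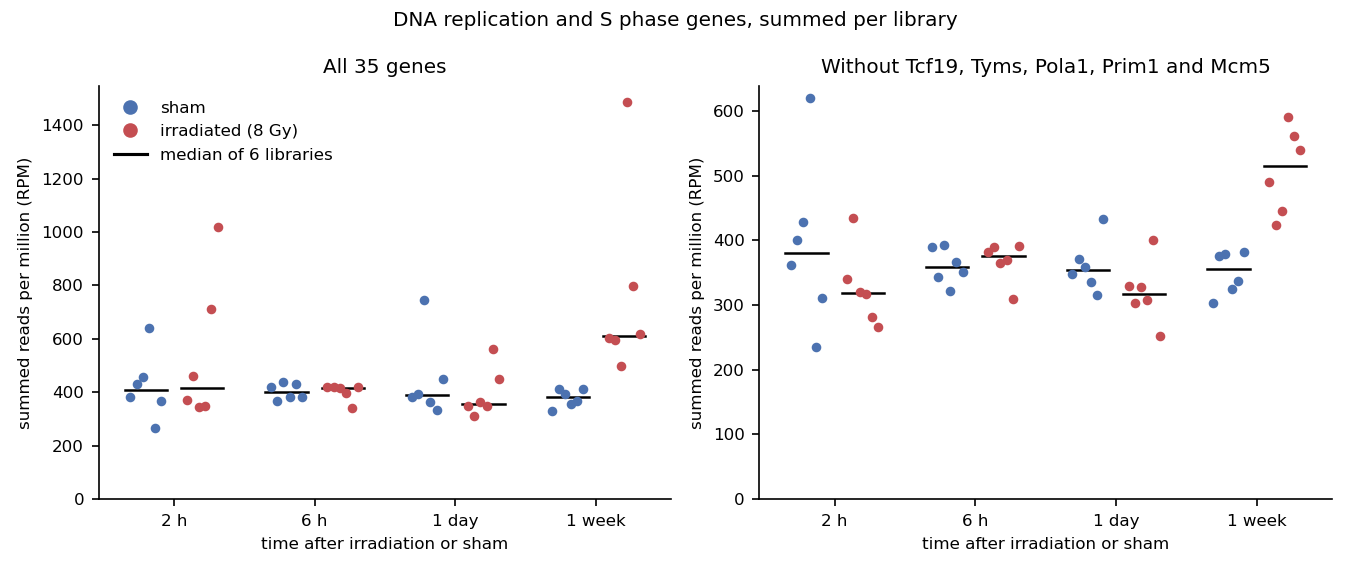
Summed RPM of the 35 genes (left) and of the same genes without Tcf19, Tyms, Pola1, Prim1 and Mcm5 (right), each point a library, blue sham and red irradiated, by time on the horizontal axis, with lines at group medians. In both panels the 6 irradiated libraries at 1 week lie above all 6 sham libraries of that time, and the highest reaches 1486 RPM on the left and 592 on the right.

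At 2 h no gene of the 25 tested changed by limma's test, with 0 higher and 2 lower at an unadjusted p under 0.05, which 10.4% and 10.1% of all genes had. With log2(RPM + 1) in place of voom 0 were called in either direction. Among all 11279 genes tested 4.83% were called higher and 4.30% lower. The median change of the 25 was 0.08, against -0.01 for all genes. Mcm6 stood at -0.91 ± 0.37 (adjusted p = 0.128), Lig1 at -1.19 ± 0.59 (0.242) and Mcm2 at -0.93 ± 0.52 (0.312). Tcf19 had the largest value, 2.67 ± 1.61 (adjusted p = 0.369), from libraries 5 and 6. With both left out, no gene was called either.

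At 6 h 1 gene was higher, Mcm7, and 1 lower, Mcm6, both subunits of the same helicase, where 14.8% of all genes were called higher and 9.81% lower. At an unadjusted p under 0.05 the 25 held 1 higher and 3 lower, beside 20.9% and 15.1% of all genes. The 25 genes had a median of -0.10 beside 0.09 for all genes. Mcm6 measured 13.3 to 38.7 RPM (median 19.0) in sham libraries and 5.4 to 14.0 (median 8.998) in irradiated ones. In 5 of 6 irradiated libraries it was below every sham library, and the groups overlap in the remaining one; the change was -1.25 ± 0.39 (adjusted p = 0.0141). Mcm7 ran from 9.28 to 61.4 RPM (median 34.3) in sham and from 45.1 to 102 (median 57.9) in irradiated libraries, a change of 1.21 ± 0.43 (adjusted p = 0.0339). These ranges overlap, with 2 irradiated libraries above all sham libraries. The span of Mcm7 (chromosome 5, 138164583 to 138172422, GRCm38) also holds Mir25, Mir93 and Mir106b and overlaps Cops6 and Ap4m1, and the sources used here do not say how reads in shared sequence were assigned. In fits that left out 1 library of 6 h, Mcm6 was called in 12 of 12 and Mcm7 in 7 of 12, with the call lost without sham library 1, 2 or 3 or irradiated library 2 or 4. The sham libraries of 6 h fell into sets, 1 to 4 and 5 and 6, in earlier results of these data. Against libraries 5 and 6 alone Mcm6 stood at -0.94 (adjusted p = 0.48) and Mcm7 at 0.19 (adjusted p = 0.961). Mcm7 in sham libraries 5 and 6 measured 51.3 and 61.4 RPM, the highest of the 6, while 1 to 4 had 9.28 to 45.1. Marker sums also moved at 6 h. The 10 microglia markers had 43220 to 47330 RPM in sham and 32890 to 36550 in irradiated libraries, and the 5 markers of perivascular macrophages 92.9 to 162 and 26.5 to 69.4. The latter sum rested mostly on Mrc1 (1559 reads in the sham and 361 in the irradiated group). Lyve1 (48 and 116 reads) and Pf4 (64 and 100) went the other way, and Cd163 (44 and 43) and Cbr2 (13 and 14) hardly differed. Markers of neural progenitors and neuroblasts rested mostly on Nes (170 and 599 reads in the groups) and had 5.88 to 31.2 and 38.6 to 71.8 RPM. Other genes of that list had few reads, such as Neurod1 (2 and 0), Sox2 (5 and 0), Stmn2 (4 and 19) and Sox11 (6 and 10). None of the pairs of ranges of these 3 sums overlaps. Neuron markers had 25.05 to 132 RPM in sham and 14.0 to 26.98 in irradiated libraries, astrocyte markers 11.4 to 39.5 and 33.7 to 69.5, and mitochondrial genes 30930 to 71150 and 23520 to 43360. The neuron sum rested mostly on Prox1 (883 and 198 reads in the groups). Other neuron markers had few reads, such as Slc17a7 (1 and 9), Snap25 (4 and 9) and Rbfox3 (5 and 4). The part of all these sums in the 6 h calls was not tested.

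At 1 day again no gene of the 25 changed by limma's test, while 3.67% and 2.48% of all genes were called higher and lower. At an unadjusted p under 0.05 there were 0 higher and 4 lower, beside 9.49% and 10.2% of all genes, and log2(RPM + 1) called 0. Their median was -0.03, against -0.06 for all genes, and 10 of 25 lay above 0. The values furthest below 0 were those of Ccne2 (cyclin E2), -1.56 ± 0.67 (adjusted p = 0.173), Mcm4, -1.14 ± 0.56 (0.25), and Mcm6, -0.99 ± 0.40 (0.14).

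One week after irradiation 7 of the 25 tested genes rose and 0 fell, namely Mcm4, Mcm5, Mcm6, Rpa2, Rrm1, Ccne1 and Tcf19, while 4.81% of all genes were called higher and 3.32% lower. Of the 7, Ccne1 entered the test only through its reads in the irradiated group of 1 week, so its call is not independent of the filter, and the other 6 did not depend on a single group. At an unadjusted p under 0.05 there were 12 higher and 0 lower, beside 14.6% and 9.77% of all genes. The median of the 25 was 0.63 beside 0.08 for all genes, and 22 lay above 0. Over all 35 genes, the median of the irradiated libraries exceeded that of the sham libraries in 30, against 17 at 2 h, 19 at 6 h and 14 at 1 day. No such count was made over all genes. Genes with medians of 0 in both groups, such as Cdc6, Mcm10 and Fen1 at 2 h, were counted as not exceeding. Low reads therefore limit the comparison of these counts between times. In Mcm6, Rpa2, Rrm1, Rrm2 and Ccne1 the 6 irradiated libraries were above all 6 sham libraries. Among the 25 tested genes these were 4, with Ccne1 among them only through that irradiated group. Of all tested genes 2.13% separated that way and 1.21% the other way. No gene of the 35 separated in either direction at 2 h (2.93% of all tested genes were higher and 2.28% lower without overlap), 6 h (5.34% and 3.29%) or 1 day (2.44% and 0.833%). Of the 5, Rrm2 is the one under the filter, and its groups were separated only narrowly.

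**Figure D3:**
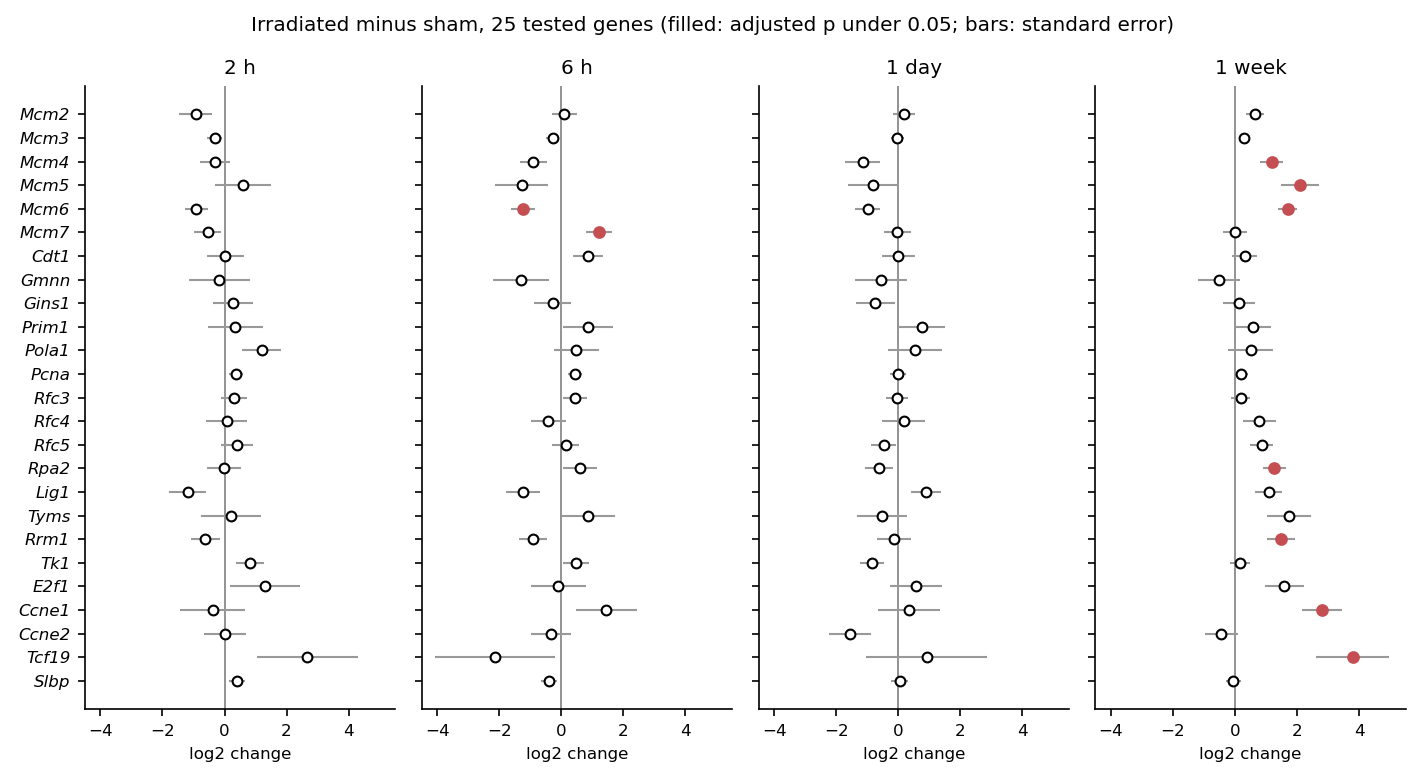
Log2 change, irradiated minus sham (horizontal axes), of the 25 tested genes (vertical axis) at 4 times, with bars of 1 standard error and filled red points where the adjusted p is under 0.05. Filled points number 0, 2, 0 and 7 from 2 h to 1 week, and at 1 week 22 of the 25 points lie right of 0.

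Among the helicase subunits and loading factors, Mcm6 rose with the smallest adjusted p of the 25 genes. Sham libraries at 1 week had 8.62 to 20.5 RPM (median 11.4) and irradiated libraries 26.03 to 65.4 (median 39.1), without overlap, a change of 1.70 ± 0.30 (adjusted p = 0.000189). At the earlier times the medians were lower in irradiated libraries, a difference that passed the test at 6 h but not at 2 h or 1 day. In sham against irradiated libraries they were 24.6 and 13.8 RPM at 2 h, 19.0 and 8.998 at 6 h, and 20.2 and 7.25 at 1 day. Among sham groups Mcm6 had medians of 24.6 RPM at 2 h and 11.4 at 1 week, a spread that the F test over sham groups did not call (adjusted p = 0.11). Mcm5 measured 2.09 to 9.33 RPM (median 4.90) in sham and 8.82 to 258 (median 15.9) in irradiated libraries at 1 week, with 5 of 6 irradiated libraries above all sham libraries and 1 of them, library 4, far above the rest. Its change was 2.10 ± 0.61 (adjusted p = 0.0239), and 1.46 (adjusted p = 0.0518) without library 4. Mcm4 changed by 1.17 ± 0.38 (adjusted p = 0.0413), from 3.89 to 29.6 RPM (median 5.80) in sham and 6.71 to 23.5 (median 19.4) in irradiated libraries, ranges that overlap fully. Mcm2 (0.63 ± 0.29, adjusted p = 0.167), Mcm3 (0.30 ± 0.18, 0.308) and Mcm7 (0.00 ± 0.38, 0.998) did not pass. So 3 of the 6 subunits of one complex were called, and the most abundant of them per length of exon, Mcm3, had medians of 83.2 RPM in sham and 94.0 in irradiated libraries. Cdt1, the licensing factor, had medians of 9.56 and 10.9 RPM. Cdc6, which loads the helicase with it, had few reads before 1 week, with 0 in all sham libraries of 2 h and of 1 day, where 3 reads over the group would be 0.297 and 0.240 RPM. At 1 week it had 4 reads in 2 of 6 sham libraries and 91 reads in 6 of 6 irradiated libraries, or 0.399 to 11.0 RPM in the latter (median 5.12). With a looser filter, 1 or more reads in at least 6 libraries (19900 genes tested), Cdc6 was called higher at 3.77 ± 0.70 (adjusted p = 0.000517). Under it 6 genes were called, since Mcm4 (adjusted p = 0.0738) and Tcf19 (0.0649) no longer passed. The filter also lets in genes that pass only through the group where they are high.

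Of the genes that restrain licensing or activate the loaded helicase, none separated the groups. Gmnn (geminin, the inhibitor of Cdt1) stood at -0.52 ± 0.68 at 1 week. Dtl, a substrate adaptor of the ubiquitin ligase that removes Cdt1, had 0.349 to 4.16 RPM (median 1.85) in sham and 3.99 to 11.2 (median 7.25) in irradiated libraries, with 5 of 6 irradiated libraries above all sham libraries. Cdc45 had 13 reads in the sham and 52 in the irradiated group. Gins1 had 143 and 138 reads, and Gins2 26 and 34. Mcm10, which acts with Cdc45 at the start of unwinding, had 23 and 46.

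Among proteins of the fork, Rpa2 was called at 1 week, and the clamp, the clamp loader and the ligase were not. Rpa2, a subunit of the single-strand DNA binding protein RPA, had 9.19 to 15.7 RPM (median 12.97) in sham and 20.1 to 47.7 (median 30.8) in irradiated libraries. The ranges did not overlap, and Rpa2 rose by 1.27 ± 0.37 (adjusted p = 0.0251). Pcna, the sliding clamp and also a p53-regulated gene, had 22.04 to 44.6 RPM (median 34.5) in sham and 32.4 to 49.9 (median 37.9) in irradiated libraries at 1 week, a change of 0.20 ± 0.22 (adjusted p = 0.623). Its changes were 0.37 ± 0.24 at 2 h and 0.44 ± 0.22 at 6 h (adjusted p = 0.402 and 0.151). The clamp loader subunit Rfc5 stood at 0.86 ± 0.38 (0.148), and Rfc3 and Rfc4 did not pass either. Lig1, which seals Okazaki fragments, had 3.003 to 15.0 RPM (median 4.97) in sham and 6.71 to 23.1 (median 12) in irradiated libraries (1.08 ± 0.43, adjusted p = 0.0981). Fen1, the flap nuclease that works with it, had 11 reads in the sham group and 4 in the irradiated group. Among the polymerases Pole, the leading-strand enzyme, had 22 and 69 reads, with 4 of 6 irradiated libraries above all sham libraries. Prim1 and Pola1, primase and polymerase alpha, had medians of 4.51 and 3.49 RPM in sham and 8.20 and 3.99 in irradiated libraries.

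In nucleotide supply, both subunits of ribonucleotide reductase, the enzyme that makes deoxynucleotides, separated the groups at 1 week, the small one only narrowly. Rrm1, its large subunit, had 4.42 to 14.3 RPM (median 11.1) in sham and 23.8 to 42.3 (median 26.3) in irradiated libraries at 1 week, without overlap, a change of 1.48 ± 0.45 (adjusted p = 0.0329). Rrm2, its small subunit and the one tied to S phase, lay under the filter with 30 reads in the sham and 102 in the irradiated group, or 0.519 to 3.74 and 3.96 to 11.6 RPM. These ranges also do not overlap, but the highest sham library (3.74 RPM) lies just under the lowest irradiated library (3.96). With the looser filter its change was 1.84 ± 0.58 (adjusted p = 0.0579). Tyms, thymidylate synthase, had 5.23 to 13.7 RPM (median 7.99) in sham and 12.1 to 567 (median 17.3) in irradiated libraries, with the highest from library 4 (1.74 ± 0.71, adjusted p = 0.114). Tk1, the S phase thymidine kinase, had medians of 14.3 and 17.8 RPM.

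Of the regulators of the G1/S step, cyclin E1 (Ccne1) rose and cyclin E2 (Ccne2) was not called. Ccne1 had 0 to 3.003 RPM (median 1.46, 25 reads in the group) in sham and 3.53 to 14.9 (median 8.43, 153 reads) in irradiated libraries. The groups did not overlap, and the fitted change was 2.8 ± 0.65 (adjusted p = 0.00446). Since 153 of its 259 reads over all libraries lie in that irradiated group, without which it falls under the filter, the levels are a description and this p adds no support. Ccne2 had medians of 3.40 and 3.83 RPM and a change of -0.44 ± 0.52. E2f1, an activating E2F factor, stood at 1.59 ± 0.63 (adjusted p = 0.101), with medians of 1.39 and 5.02 RPM. Tcf19 had 1.78 to 13.2 RPM (median 3.23) in sham and 12.4 to 194 (median 59.4) in irradiated libraries, 5 of them above all sham libraries, and changed by 3.79 ± 1.19 (adjusted p = 0.0404). Slbp, which binds histone mRNA, had medians of 27.1 and 23.8 RPM and a change of -0.05 ± 0.23 (0.911). Uhrf1 and Chaf1b, which act on newly made chromatin, had 31 reads each in the sham group and 48 and 50 in the irradiated group.

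**Figure D4:**
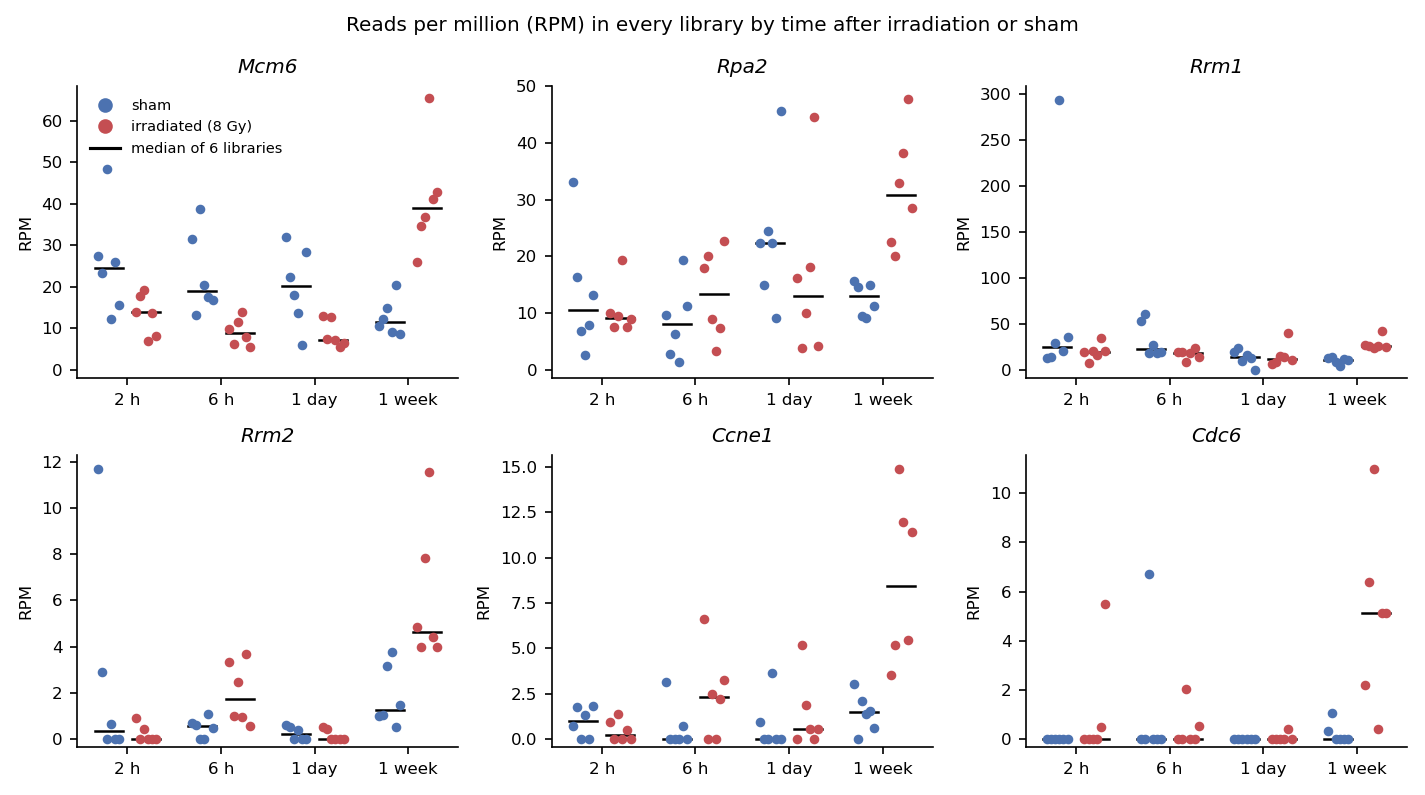
RPM in every library (points, blue sham, red irradiated; lines are medians of 6) by time on the horizontal axis for Mcm6, Rpa2, Rrm1, Rrm2, Ccne1 and Cdc6, each panel with its own vertical scale. At 1 week all 6 irradiated libraries lie above the sham libraries for each gene except Cdc6, where 5 of 6 do, and a sham 2 h library reaches 294 RPM for Rrm1.

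Leaving out single libraries of 1 week separated the calls. Mcm6 was called in each of 12 such fits, as was Ccne1 with the limit of its filter given above, Mcm5 and Rpa2 in 10, Rrm1 in 8, Mcm4 in 3 and Tcf19 in 2. Without irradiated library 4, which had stood apart in earlier results of these data, 4 genes were called, Mcm6, Rpa2, Rrm1 and Ccne1; 3 were called without sham library 4 or without irradiated library 5, and 4 without sham library 2 or 5. Library 4 also held 386 RPM of 7 neuron markers, against 10.2 to 45.4 in the other 11 libraries of that time. Among these markers Slc17a7 alone had 917 reads in the irradiated group, found in 2 libraries. Rbfox3 and Snap25 had 8 reads each there, Gad1 3, and Syt1 and Gad2 0. Prox1 had 504 reads in the sham and 460 in the irradiated group. Of the replication genes 3 were called at 1 week on log2(RPM + 1), and 0 on log2 of the deposited RPKM, where only 14 were tested.

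The change of the irradiation effect between times was tested in the same fit. From 1 day to 1 week it rose for Mcm6 by 2.69 ± 0.50 (adjusted p = 0.000328), for Mcm4 by 2.31 ± 0.68 (0.02) and for Rpa2 by 1.89 ± 0.58 (0.0275), and for 0 of the 25 it fell (6.04% and 5.19% of all genes were called). For Mcm5 it was 2.89 ± 1.01 (adjusted p = 0.0541). Between 2 h and 6 h and between 6 h and 1 day the effect changed in 0 of the 25 by limma's test, where 4.88% and 3.89% of all genes were called higher and lower for the first and 1.78% and 4.18% for the second. At an unadjusted p under 0.05 each had 1 higher, and 1 and 2 were lower. An F test over the 4 times called Mcm6 (adjusted p = 3.24e-05), Lig1 (0.00967), Mcm4 (0.028), Rrm1 (0.0351) and Mcm5 (0.0407), where 25.6% of all genes were called. In the sham groups over time, Rrm1 (adjusted p = 0.0186) and Tk1 (0.0348) were called, where 23.0% of all genes were. Between sham animals of 1 day and 1 week 0 of the 25 changed by limma's test (1 lower and 0 higher at an unadjusted p under 0.05), beside 0.00887% of all genes called higher and 0% lower.

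Several of the genes had most of a group's reads in 1 or 2 libraries. Tcf19 had 663 and 1453 reads in irradiated libraries 5 and 6 of 2 h (the latter 569 RPM), where the group's median was 10.4 RPM, and 311 reads in irradiated library 6 of 1 day. Pola1 was high in the same libraries of 2 h, with 152 and 385 reads. Tyms had 641 reads in sham library 3 of 1 day and 1422 in irradiated library 4 of 1 week. Mcm5 had 646 reads in the last of these. Prim1 had 330 reads in irradiated library 5 of 1 day (138 RPM), against a group median of 3.801 RPM, and Rrm1 452 reads in sham library 4 of 2 h. The group means of these genes follow single libraries, and medians are given for that reason.

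**Figure D5:**
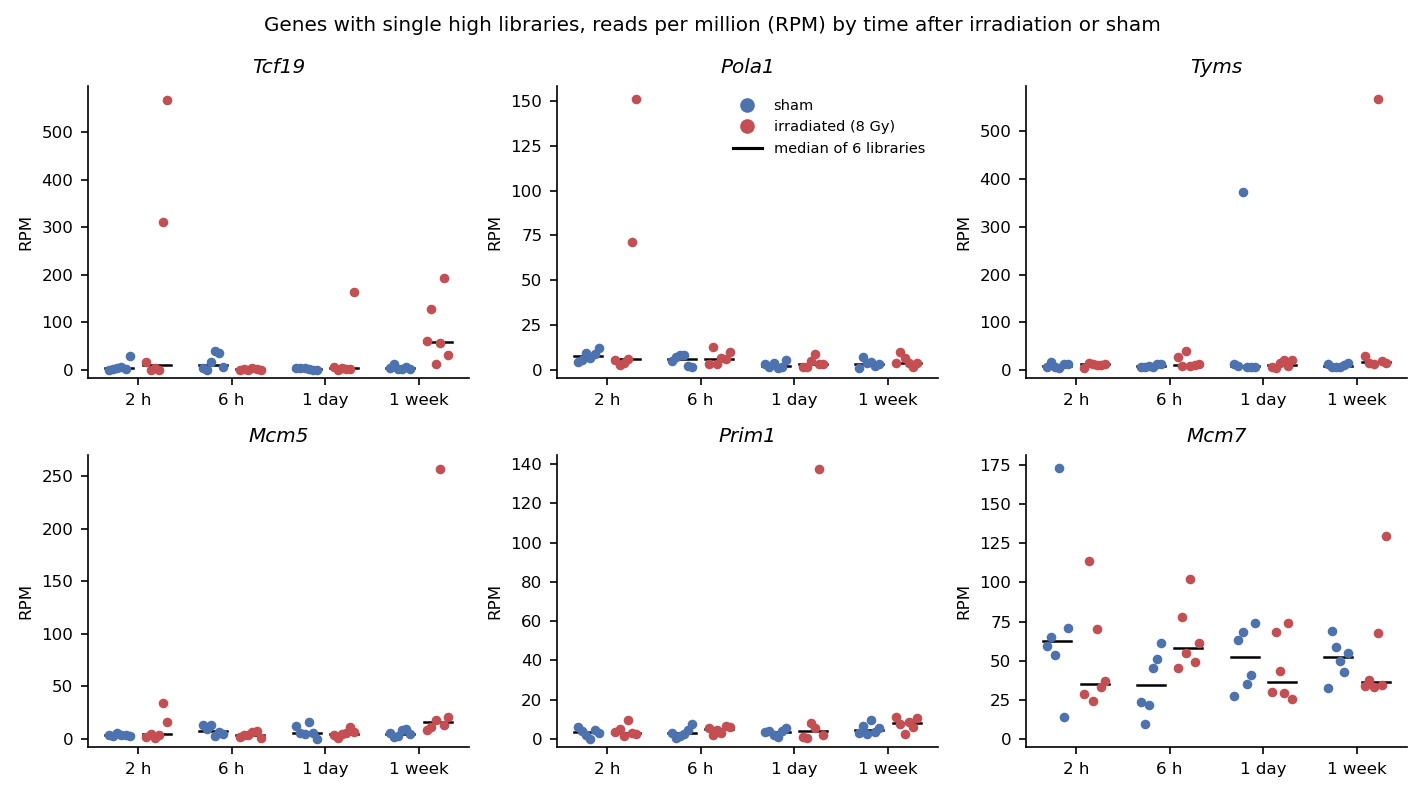
RPM in every library (points, blue sham, red irradiated; lines are medians of 6) by time on the horizontal axis for Tcf19, Pola1, Tyms, Mcm5, Prim1 and Mcm7, each panel with its own vertical scale. Single libraries stand far above the rest, up to 569 RPM for Tcf19 and 567 for Tyms, while Mcm7 varies widely in every group.

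Genes that act around the 35 give the setting, from lists that were also chosen with earlier results known. Of 47 other replication genes 41 were tested. At 2 h 3 were higher and 0 lower (4.83% and 4.30% of all genes), among them Donson, a fork protein (2.31 ± 0.24, adjusted p = 2.25e-10), and Dck, deoxycytidine kinase (1.2 ± 0.38, 0.0325). At 6 h 4 were higher and 4 lower, shares no larger than the 14.8% and 9.81% of all genes, with Tonsl, a repair factor of stalled forks, at 1.12 ± 0.26 (0.00109) and the polymerase delta subunit Pold3 at -1.0 ± 0.26 (0.00362). At 1 day limma called 0 (4 higher and 3 lower at an unadjusted p under 0.05; 3.67% and 2.48% of all genes were called), and at 1 week Tonsl alone (0.85 ± 0.26, adjusted p = 0.0343), where 4.81% of all genes were higher. Their medians were -0.12, -0.22, 0.01 and 0.28 over the 4 times.

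Of 33 genes that control the G1/S step 29 were tested. At 2 h 4 were higher and 1 lower (4.83% and 4.30% of all genes), with Cdk6, a G1 kinase, at 1.37 ± 0.14 (adjusted p = 2.78e-10). Cyclin D1 (Ccnd1), its partner, was higher by 2.09 ± 0.25 at 6 h (8.8e-09) and 2.02 ± 0.25 at 1 day (4.99e-08). At 6 h 4 were higher and 5 lower, beside 14.8% and 9.81% of all genes, so the share higher was no more than that of all genes. At 1 day the counts were 3 and 2 (3.67% and 2.48% of all genes) and at 1 week 3 and 1 (4.81% and 3.32%). The kinase inhibitor Cdkn1c was lower at 1 week (-2.06 ± 0.51, adjusted p = 0.00753), and Ccnd1 still higher (0.79 ± 0.22, 0.0163). Cdkn1a was thus at 731 to 1128 RPM in the same irradiated libraries of 1 week in which the replication genes above were higher.

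Genes of mitosis, the step that follows replication, were summed in the same libraries. At 1 week the 30 of them had 62.6 to 120 RPM in sham and 175 to 265 in irradiated libraries, without overlap. Of 11 tested 7 rose and 0 fell (4.81% and 3.32% of all genes), including the proliferation marker Mki67 (2.31 ± 0.49, adjusted p = 0.00204) and topoisomerase Top2a (2.31 ± 0.54, 0.00439). The other 19 had too few reads to be tested. Whether the 11 would pass the filter without the irradiated group of 1 week was not examined. Their calls at that time are therefore not shown to be independent of the filter. At 2 h and 1 day limma called 0 (at an unadjusted p under 0.05, 1 lower at 2 h), and at 6 h Ccnf alone (1.85 ± 0.70, 0.0467). Their median change was 2.09 at 1 week.

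Markers of other cells were measured in the same libraries of 1 week. The 10 microglia markers summed to 38990 to 43080 RPM in sham and 42130 to 49950 in irradiated libraries. Neural progenitors and neuroblasts include dividing cells of the hippocampus. Their 12 markers summed to 2.38 to 20.9 RPM in sham and 0.855 to 5.74 in irradiated libraries. Nes made up most of both (134 reads in the sham and 40 in the irradiated group). Dcx, Eomes, Neurod1, Hes5, Igfbpl1, Sox11 and Stmn2 were at 0 reads in all 6 irradiated libraries. In the sham group each of them also had few, from 0 (Neurod1 and Igfbpl1) to 4 reads (Stmn2). Sox2 (0 reads in sham and 5 in irradiated libraries) and Hopx (0 and 6) went the other way. The 9 markers of monocytes and neutrophils summed to 6.54 to 38.1 and 11.9 to 24.5 RPM, and the 6 lymphocyte markers to 0 to 0.349 and 0 to 0.711. Oligodendrocyte lineage markers summed to 42.8 to 116 RPM in sham and 52.5 to 134 in irradiated libraries. Astrocyte markers had 5.82 to 22.3 and 5.46 to 16.3, and vascular markers 38.3 to 69.7 and 33.4 to 56.0. Perivascular macrophage markers had 44.1 to 111 and 72.6 to 116. The groups overlapped in each of these sums. The last rested mostly on Mrc1 (1078 reads in the sham and 1502 in the irradiated group). Cbr2 had 23 and 37 reads, while Cd163 (75 and 22), Lyve1 (108 and 56) and Pf4 (144 and 106) went the other way. Reads on mitochondrial genes did move with the groups, at 14210 to 23570 RPM in sham and 25580 to 43780 in irradiated libraries, and their part in the results was not tested, apart from a scaling that leaves them out of the totals, under which 7 genes were again called at 1 week. In bulk RNA more cells in S phase and more RNA per cell cannot be told apart.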

How the data were processed

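Hippocampal microglia of 48 mice were sequenced in bulk, 1 library each, prepared with Qiagen's QIAseq FX kit for single cell RNA per the labels' protocols. Per the submitters' processing notes, STAR 2.6.1d and featureCounts 1.5.1 were used with GRCm38 and mm10, after bcl2fastq 2.20.0 and FastQC 0.11.8; the annotation and read assignment are not given in the sources used here.

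The deposited table holds RPKM of 48526 genes, made by the authors from whole reads divided by gene span (introns included) and by a library total, which was the library's own for 2.05% of the 719081 values above 0. Undoing this gave whole reads for 100% of these values (tolerance 0.001 reads); 47 of 48 libraries then summed to a total of the set and the other missed by 1 read. For 95 genes of at most 16 reads, none among the 35, several matches were possible. Recovery was tested on simulated data.

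Because the deposited unit is RPKM, limma 3.58.1 in R 4.3.3 was run with voom and robust eBayes on 8 group means over all 48 libraries, without a block, on 11279 genes with a mean of at least 5 reads a library. Tests are two-sided with Benjamini-Hochberg adjustment over all genes tested, and a call is an adjusted p under 0.05. The submitters' design text gives 6 animals per group; labels give replicate numbers but no pairing. No molecular identifiers are mentioned, so a floor of 3 reads covers counting error only. The alternatives changed scaling, filter (looser, and a mean of 20 reads), log scale (RPM plus 1 or 5, RPKM plus 1), weights, block, and libraries. The members and lists were chosen with earlier results of these data known. Genes named are all 35, those called or among the 6 of highest mean RPM with full ranges, and up to 4 per list and time with the smallest adjusted p. Promoter windows are from RefSeq (GRCm38.p6). Sums have no test.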

Additional observations from a re-analysis of the deposited data

Results flagged for a closer look

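Per-library RPM of the 12 genes that were called or most abundant, and the sum of the 35, were examined for a single library far from the other 5 of its group, by a gap of more than 0.625 of the group's range. Of 104 groups 23 met this, where chance gives about 1 in 20 for normally distributed values. The rate for low, skewed RPM values such as these was not measured.

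In the irradiated groups of 1 week, library 4 was far above the rest for Tyms (567 RPM, next 28.2), Mcm5 (258, next 20.5) and the sum (1486, next 796). Library 5 was highest for Mcm3 (145, next 101) and Rrm1 (42.3, next 26.9), library 6 for Mcm7 (129, next 67.8), and library 2 was lowest for Mcm4 (6.71, next 17.8). In irradiated libraries of 1 day, Tcf19 in library 6 reached 165 RPM (next 5.74), while library 5 was highest for Rpa2 (44.6, next 18.1) and Rrm1 (40.0, next 15.2) and library 2 for Ccne1 (5.203, next 1.90). At 6 h, irradiated library 1 was highest for Slbp (31.8) and library 5 lowest for the sum (342). At 2 h, irradiated library 2 was highest for Mcm3 (68.2) and library 4 for Rpa2 (19.5).

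Sham libraries also stood out. Library 4 of 2 h had 294 RPM of Rrm1 (next 35.9) and 173 of Mcm7 (next 71.2), library 3 of 2 h 23.9 of Mcm4, and library 6 of 2 h 28.7 of Tcf19. Library 1 of 6 h had 3.12 RPM of Ccne1 and library 4 of 1 day 3.65. Library 3 of 1 day had 373 RPM of Tyms (next 12.1) and a sum of 746 (next 450).

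The irradiation effect at 1 week differed from that at 1 day, by limma's test of the difference, for Mcm6 (2.69, adjusted p = 0.000328), Mcm4 (2.31, 0.02) and Rpa2 (1.89, 0.0275).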

How the results depend on the processing

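The number of tested genes called higher at 1 week, 7, was 3 with log2(RPM + 1), 4 with log2(RPM + 5), 2 with log2(recomputed RPKM + 1), 0 with log2(deposited RPKM + 1) and 4 with that time fitted alone. Leaving out single libraries gave 3 to 8. Both RPKM settings tested 14 of the 35 genes (10132 genes in all) and the looser filter all 35, in place of 25. The counts under these settings are therefore not over the same genes. At 6 h, where 1 was higher, 0 were so with the looser filter, log2(RPM + 1), log2(RPM + 5), sample quality weights, log2(recomputed RPKM + 1), log2(deposited RPKM + 1) or sham libraries 5 and 6 alone, and 0 to 1 with single libraries left out. At 6 h, where 1 was lower, 0 were so with log2(deposited RPKM + 1) or sham libraries 5 and 6 alone, and 2 with sham libraries 1 to 4 alone. At 1 day 0 to 1 were lower with single libraries left out (1 without sham library 5). The changes of Mcm4, Mcm5, Mcm6, Rpa2, Rrm1, Ccne1 and Tcf19 at 1 week and of Mcm6 and Mcm7 at 6 h kept their sign under the alternatives that could be fitted to them. The other genes were not followed, and the cause of the lost calls was not tested. With the replicate number as a block, 2 genes were higher and 1 lower at 2 h, 2 lower at 6 h, 1 higher and 1 lower at 1 day, and 6 higher at 1 week (Tyms was added, Mcm4 and Rrm1 lost). Deviations of same-numbered libraries from their group means correlated at -0.15 to 0.15 (median 0.01, 24 pairs). The labels give no pairing, and these correlations cannot show whether such libraries shared handling. Over all genes, deposited RPKM gave 52 higher and 1 lower at 2 h (545 and 485 in voom), 56 and 7 at 6 h (1671 and 1106), 39 and 0 at 1 day (414 and 280), and 10 and 0 at 1 week (543 and 375). At 1 week log2(RPM + 1) gave 243 and 207, log2(RPM + 5) 285 and 228, and recomputed RPKM 206 and 153 (141 lower at 1 day). Sham libraries 5 and 6 alone gave 202 and 101 at 6 h, and 1 to 4 alone 1687 lower. Single libraries left out gave 288 to 746 higher and 205 to 492 lower at 1 week, and 157 to 318 lower at 1 day. Depth limits the 10 genes under the filter, with 30 to 225 reads over 48 libraries.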
